A study of Mus musculus with 2 samples.

Results

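The genes described here are Mir137, the paired loci Mir129-1 and Mir129-2, and the 3 miR-135 loci Mir135a-1, Mir135a-2 and Mir135b. They were chosen by name, and all 6 were found among the 2202 miRNA genes of the GENCODE M21 annotation. RNA in the size range under 30 nt was sequenced from 1 tissue, left cerebral cortex, of the mouse strain 5xFAD/CAST (female, adult, 8 to 10 months old). 5xFAD mice carry transgenes for mutant human amyloid precursor protein and presenilin 1, driven by the neuronal Thy1 promoter, and form amyloid plaques. The labels do not say how the 5xFAD and CAST backgrounds were combined. The 2 libraries, biological replicates 1 and 2, form 1 group, so the transgenes are shared by every sample and no genotype, age or treatment is compared. The replicates are separate biosamples that name the same donor entry, and nothing says that they came from separate animals. Differences between these libraries may be technical. The exact binomial p-values below set them against counting error alone, not against a spread between animals.

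MiRNAs are short RNAs cut from a hairpin that guide Argonaute proteins to messenger RNAs paired with the seed, bases 2 to 8 of the mature strand, and so lower the output of those messages. All 3 families act at synapses. The brain-enriched miR-137 limits dendrite growth and represses presynaptic genes such as Syt1, and the human MIR137 locus is linked to schizophrenia. MiR-129-5p represses the potassium channel gene Kcna1 in dendrites and takes part in the scaling down of synapses after prolonged activity. MiR-135 represses the complexin genes, which control vesicle release, and the serotonin transporter gene Slc6a4.

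The mature sequences come first because they decide which reads could be assigned to a gene: reads that map to several places were set apart in the deposited tables and counted for no gene. All 6 members matched entries of the RefSeq table (GRCm38.p6) by symbol, which gave 8 distinct mature sequences. They are written 5′ to 3′ with the seed in capitals.
miR-137-5p: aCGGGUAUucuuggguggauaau
miR-137-3p: uUAUUGCUuaagaauacgcguag
miR-129-5p: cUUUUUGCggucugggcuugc
miR-129-2-3p: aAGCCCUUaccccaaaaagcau
miR-135a-5p: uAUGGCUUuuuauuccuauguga
miR-135a-1-3p: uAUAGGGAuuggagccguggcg
miR-135a-2-3p: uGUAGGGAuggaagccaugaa
miR-135b-3p: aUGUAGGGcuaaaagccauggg
The 8 sequences had 8 different seeds. MiR-129-1-3p and miR-135b-5p had no RefSeq entry, so they are named only and seeds were not counted for them. The count of different seeds therefore leaves out both of these arms, and the windows below bear on them. MiR-129-5p was present in full in the hairpins of both Mir129-1 and Mir129-2, and miR-135a-5p in those of both Mir135a-1 and Mir135a-2. Each of the other 6 sequences lay in 1 miRNA hairpin.

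Sister hairpins that did not hold a mature sequence in full could still come close to it, as the following windows show. In each window the capital marks the base that differs, and positions are counted from 1 at the 5′ end of the mature sequence named first.
miR-135a-5p against the Mir135b hairpin: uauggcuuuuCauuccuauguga
miR-129-2-3p against the Mir129-1 hairpin: aagcccuuaccccaaaaagUau
The Mir135b window differed from miR-135a-5p by the single substitution U11C, so bases 2 to 8, the seed of miR-135a-5p, were the same in Mir135b. The Mir129-1 window differed from miR-129-2-3p by the single substitution C20U, so the first 19 bases were identical. A read of this arm that ends before that base matches both loci. The 3′ arms of the miR-135 loci were less alike: the best window of the Mir135a-2 hairpin differed from miR-135a-1-3p at 7 of 22 bases, and that of the Mir135b hairpin differed from miR-135a-2-3p at 5 of 21.

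Taken over whole hairpins, 4 of the 6 members shared at least one stretch of 18 bases with another miRNA hairpin on the same strand, beside 51.2% of all 2202 hairpins. The 4 were the Mir129 and the Mir135a pairs, each sharing with its partner only. Mir129-1 shared 13 of its 56 stretches and Mir129-2 13 of 73, which covered 47 bases in each and lay on both arms. The longest run in common had 26 bases and held all of miR-129-5p: aucuuuuugcggucugggcuugcugu. Mir135a-1 and Mir135a-2 shared 7 stretches that covered 24 bases on the 5′ arm and none on the 3′ arm. Mir137 and Mir135b shared no stretch. The copies were sought among miRNA hairpins and transcripts, and the genome outside these was not searched here.

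**Figure D1:**
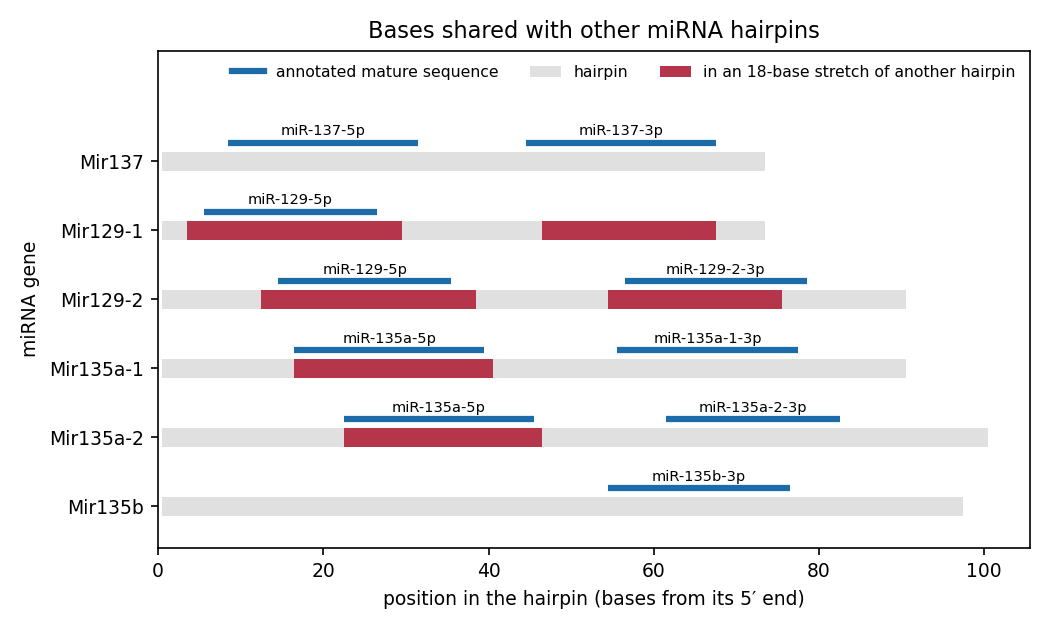
Each grey bar is the hairpin of 1 member, drawn from its 5′ end (x axis, position in bases), with annotated mature sequences as blue lines and bases inside an 18-base stretch of another miRNA hairpin in red. Red covers parts of both arms in the Mir129 pair (47 bases each), the 5′ arm alone in the Mir135a pair (24 bases each), and nothing in Mir137 and Mir135b.

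The 6 loci lie on 6 chromosomes of mm10 and no other miRNA gene on the same strand within 10 kb of a member had counts. Mir137 (ENSMUSG00000065569.2) lies on chromosome 3 from 118433857 to 118433929, plus strand, in exonic sequence of the noncoding transcript gene Gm26871. Mir129-1 (ENSMUSG00000065469.1) lies on chromosome 6 from 29022619 to 29022691, plus strand, in an exon of the lincRNA gene Gm3294. Mir129-2 (ENSMUSG00000065511.1) lies on chromosome 2 from 94241364 to 94241453, minus strand, in an intron of Mir670hg, a host gene for Mir670. On its opposite strand, from 94241378 to 94241442, the annotation places a further miRNA gene, Mir129b. Mir135a-1 (ENSMUSG00000065407.1) lies on chromosome 9 from 106154124 to 106154213, plus strand, in an intron of D030055H07Rik and opposite a UTR of Glyctk. Mir135a-2 (ENSMUSG00000065524.1) lies on chromosome 10 from 92072086 to 92072185, minus strand, in an intron of the lincRNA gene Rmst. Mir135b (ENSMUSG00000065435.1) lies on chromosome 1 from 132198088 to 132198184, plus strand, in an intron of the protein-coding genes Lemd1 and AC124108.1, which overlap.

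The hairpins were 73 to 100 nt long with predicted minimum free energies from -48.7 kcal/mol for Mir135b to -31 for Mir129-1. The GC content was lowest in Mir135a-2, at 33%, and 45.2% to 53.6% in the other 5.

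The tables held 4226300 counts on miRNA genes in replicate 1 and 5162369 in replicate 2, which are 32.6% and 32.4% of all reads. Reads mapping to several places made up 40.4% and 39.4%. Of the markers of neurons, which include Mir132 and the Mir128 and Mir124a loci, 4 of 7 reached 10 CPM in both libraries, the minimum used here to call a gene detected (CPM are counts scaled to a total of 1000000 on miRNA genes). The 3 that did not were the Mir124a loci. They belong to a family encoded at 3 loci, and reads that map to several places count for no gene. Their low counts therefore need not mean that miR-124 was low. How many of those reads come from these loci was not tested. Both oligodendrocyte markers, both mural markers and the endothelial and astrocyte markers were detected, as were 2 of 3 microglial and immune markers, 1 of 2 blood markers and the muscle marker Mir206. The liver and gut marker Mir192 was not.

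Mir137 had by far the most counts of the 6 genes, followed by the 2 Mir129 loci and then the 3 Mir135 loci. Together they held 0.722% ± 0.0373 of the counts on miRNA genes (SD, n = 2). Mir137 gave 80.3% of the members' counts in replicate 1 and 83.0% in replicate 2, the Mir129 pair 18.6% and 15.2%, and the Mir135 loci 1.10% and 1.80%. Only reads that mapped to a single place are counted. Mir137 shared no 18-base stretch with another miRNA hairpin, whereas miR-129-5p and miR-135a-5p each lie in full in 2 hairpins. How far reads that mapped to several places would change this order and these shares was not tested. At 10 CPM or more in both libraries, 5 of the 6 members were detected, and 14% of all annotated miRNA genes were. These are bulk tissue libraries, so fewer cells of a type and less RNA per cell cannot be told apart.

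For Mir137 replicate 1 gave 25391 counts and replicate 2 gave 29784, or 6008 and 5769 CPM. Its mean level was 5889 CPM ± 169 (SD, n = 2), and it ranked 33rd and 36th of the 2202 genes. The libraries were close for this gene in CPM. The exact binomial 95% intervals, which cover counting error only, ran from 5934 to 6082 CPM and from 5704 to 5835. These intervals did not overlap. The 2 genes nearest to it in level, by distance in log2(CPM + 1) over the 2 libraries, were Mir324 with 5899 and 6347 CPM and Mir26b with 6551 and 5499. Beside Mir137, the transcript gene Gm26871 holds a predicted miRNA gene, Gm24155, which had 0 counts in both libraries.

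Mir129-2 was the more abundant Mir129 locus in both libraries. Its counts were 4884 in replicate 1 and 4654 in replicate 2, which are 1156 and 902 CPM (mean 1029 ± 180, SD, n = 2). Mir129-1 had 992 and 810 counts, or 235 and 157 CPM (mean 196 ± 55.0). Each locus was higher in replicate 1, and the levels of the 2 loci did not overlap. Nearest to Mir129-2 in level were Mir370, with 1095 and 874 CPM, and Mir409, with 1214 and 963. Nearest to Mir129-1 were Mir15b, with 223 and 158 CPM, and Mir145a, with 235 and 169.

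Of the reads assigned to the pair, Mir129-1 took 16.9% in replicate 1 (exact 95% interval 15.9 to 17.9) and 14.8% in replicate 2 (13.9 to 15.8), a mean of 15.9% ± 1.46 (SD, n = 2). This split describes reads that mapped to a single place. The mature sequence printed above as miR-129-5p lies in both hairpins at full length, and the other arm differs at 1 base in the window compared. The tables do not separate the arms, and how the reads that mapped to several places divide between the loci was not tested.

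The Mir135 loci had few counts. For Mir135b replicate 1 gave 190 counts and replicate 2 gave 385, or 45.0 and 74.6 CPM (mean 59.8 ± 20.9, SD, n = 2). Mir135a-2 had 124 and 208 counts, or 29.3 and 40.3 CPM (mean 34.8 ± 7.74). Mir135a-1 had 35 and 52 counts, or 8.28 and 10.1 CPM (mean 9.18 ± 1.27). It missed the detection minimum in replicate 1 and passed it in replicate 2, with exact 95% intervals of 5.77 to 11.5 and 7.52 to 13.2 CPM that both hold the minimum of 10. All 3 loci were higher in replicate 2.

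Within the Mir135a pair, Mir135a-1 took 22.0% of the counts in replicate 1 (exact 95% interval 15.8 to 29.3) and 20.0% in replicate 2 (15.3 to 25.4), and the intervals overlapped. The members that share miR-135a-5p had lower levels than Mir135b, whose hairpin shares no 18-base stretch. The part that reads set apart for mapping to several places play in that order was not tested. Nearest in level to Mir135b were Mir491, with 44.7 and 79.8 CPM, and Mir412, with 51.3 and 74.6. Nearest to Mir135a-2 were Mir10b, with 31.9 and 40.1 CPM, and Mir7j, with 31.0 and 36.8.

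**Figure D2:**
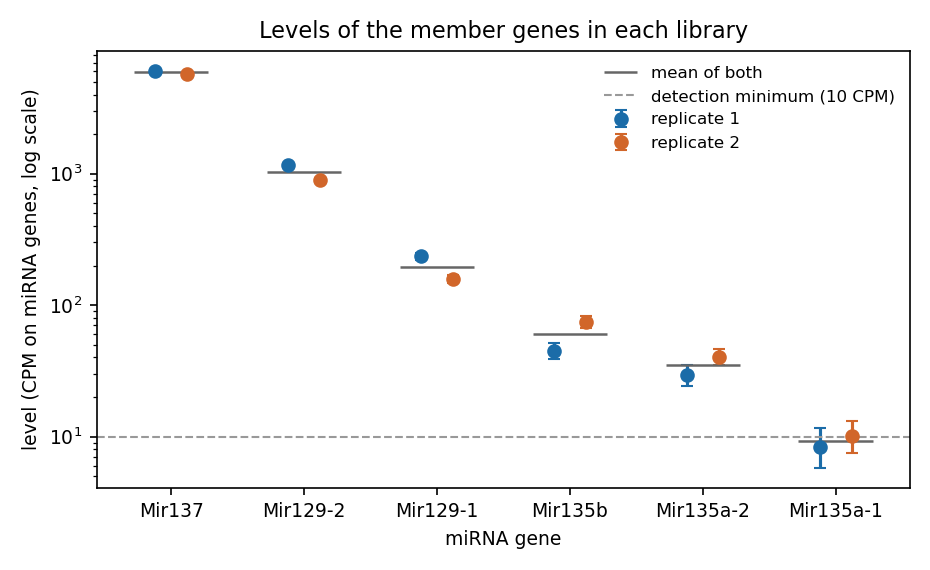
Points give the level of each member in replicate 1 (blue) and replicate 2 (orange) in CPM on a log axis, with exact 95% intervals for counting error, grey bars give the mean of the 2 libraries and the dashed line marks 10 CPM. Mir137 stands at 5889 CPM on average and Mir135a-1 at 9.18, with the Mir129 loci higher in replicate 1 and the Mir135 loci higher in replicate 2.

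The order of the 6 levels was the same per hairpin and per length. On the scale of CPM per 100 nt of hairpin, means were 8067 ± 231 for Mir137, 1143 ± 200 for Mir129-2, 268 ± 75.4 for Mir129-1, 61.6 ± 21.6 for Mir135b, 34.8 ± 7.74 for Mir135a-2 and 10.2 ± 1.41 for Mir135a-1 (SD, n = 2 each). Mir137 exceeded Mir129-2 by 6.41-fold in replicate 1 and 7.89-fold in replicate 2 on this scale, and Mir129-2 exceeded Mir129-1 by 3.99-fold and 4.66-fold. These folds leave out reads that mapped to several places, whose part in them was not tested. Mir135b and Mir135a-2 were the neighbours least apart: Mir135b was 1.58-fold and 1.91-fold higher, and the gap between their means was smaller than the sum of their SDs. For the other neighbours the gap exceeded that sum.

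The hairpins that lie in the same host gene as a member, on its strand, were far lower than it. These neighbours were looked up after the members' values had been seen. Mir670, in the same host gene as Mir129-2, had 31 counts in each library, and Mir1251, in Rmst with Mir135a-2, had 1 and 0. Mirlet7g was the miRNA gene next to Mir135a-1, 24626 bases away on the same strand, and had 425200 and 699762 counts against the 35 and 52 of Mir135a-1.

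Mir129-2 passed the detection minimum on its own strand and fell below it where strand was ignored. Counts on its own strand made up 99.86% of those at the locus in replicate 1 (exact 95% interval 99.71 to 99.94) and 99.74% in replicate 2 (99.55 to 99.87). On the opposite strand there were 7 and 12 counts, the same numbers that Mir129b had on its own strand. In the column that ignores strand, Mir129-2 kept 19 and 42 counts (4.82 and 8.75 CPM), 0.389% and 0.902% of those on its strand, and Mir129b kept 0. The 4865 and 4612 counts opposite Mir129b are the number that Mir129-2 lost there. With that column the Mir129-1 share of the pair was 98.1% and 95.1%, in place of 16.9% and 14.8%. No other member lay opposite a miRNA gene: Mir129-1 and the 3 Mir135 loci had 0 opposite-strand counts and Mir137 had 1 in replicate 1.

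**Figure D3:**
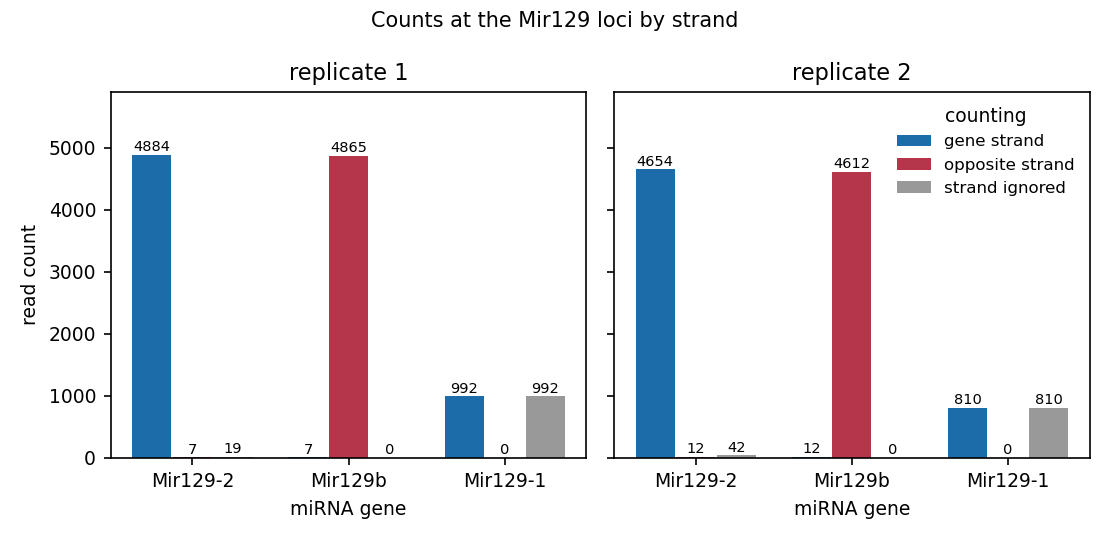
Bars give read counts at Mir129-2, at Mir129b on the opposite strand of the same locus, and at Mir129-1, in each library, counted on the strand of the gene (blue), on the opposite strand (red) or without regard to strand (grey). The 4884 and 4654 counts of Mir129-2 fall to 19 and 42 when strand is ignored, and Mir129-1 keeps its 992 and 810.

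Other miRNA genes known from synapses and neuronal plasticity had mean levels from 0.581 to 30883 CPM, a wider range than the 9.18 to 5889 CPM of the members. Of a list of 30, 26 were detected in both libraries, beside 14% of all annotated miRNA genes. The list was chosen with earlier results of these data known, so its detected share is not independent of them. Together the list took 9.43% ± 2.35 of the counts (SD, n = 2). Its 3 most abundant genes were Mir132, an activity-induced promoter of dendrite growth, at 30883 CPM ± 13710, Mir29a at 11769 ± 1779 and Mir191 at 9455 ± 687. In mean CPM, 6 genes of the list stood above Mir137, 11 above Mir129-2, 20 above Mir129-1 and 23 above Mir135b. The median over the list was 487 CPM, over the 6 members 128 CPM and over all detected genes 250 CPM. The medians of the list and of the members include genes that were not detected, so the third median is not on a like basis. The 4 list genes not detected were Mir124a-1, Mir124a-2, Mir124a-3 and Mir9-2, with means between 0.581 and 2.67 CPM. All are from families encoded at 3 loci, but Mir9-1 and Mir9-3 were detected, at means of 23.9 and 84.8 CPM. The part that reads mapping to several places play in these levels was not tested.

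**Figure D4:**
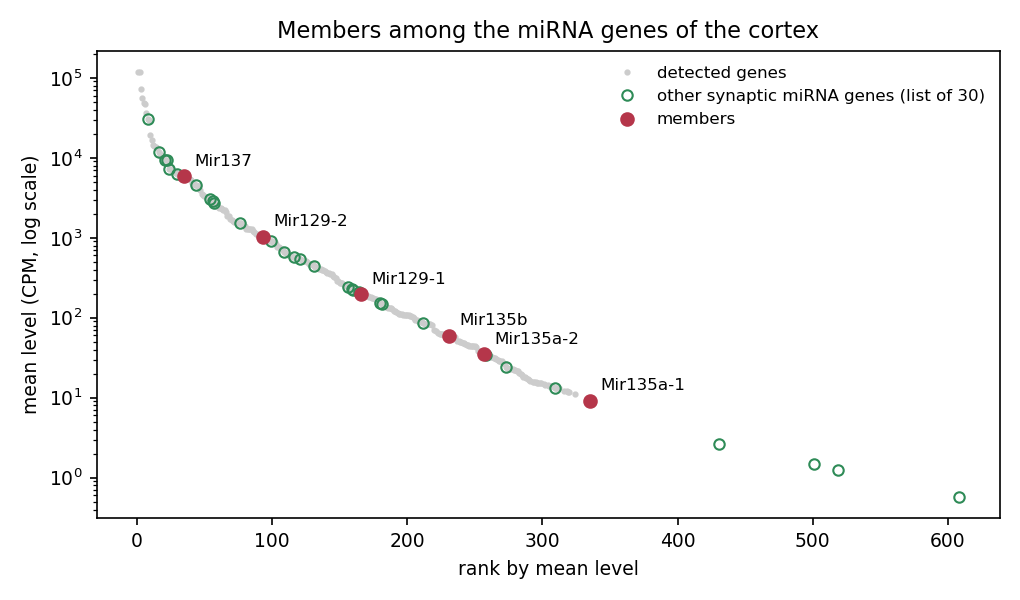
Mean level in CPM (log axis) is plotted against rank by mean level for detected miRNA genes (grey), the other synaptic miRNA genes that had counts (green circles) and the members (red). Mir137 lies among the upper synaptic genes with 6 of the list above it, and Mir135a-1 lies below 26 of them.

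Between the libraries, both Mir129 loci were higher in replicate 1 and all 3 Mir135 loci were higher in replicate 2, while Mir137 was 1.06-fold higher in replicate 1. A two-sided exact binomial test set each gene's counts against the share given by library sizes scaled with TMM, with Benjamini-Hochberg adjustment over 546 genes. It compares these libraries, not conditions, and allows for counting error alone. It called 5 of the 6 members, against 58.8% of the tested genes. Of the members, 3 were called higher in replicate 1, where 34.2% of tested genes were, and 2 in replicate 2, where 24.5% were. Among other tested genes with means of 10 to 100 CPM, 61.5% were called. At 100 to 1000 CPM 80.9% were, and at 1000 to 10000 CPM 94.4%. Mir135a-1, with a mean of 9.18 CPM, lies below these ranges. The share called was high among genes of like level too, so these calls show nothing particular to the members.

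Mir129-1 was 1.53-fold higher in replicate 1 (log2 ratio of replicate 2 to replicate 1 -0.61, exact 95% interval -0.75 to -0.48, exact binomial adjusted p = 1.04e-18). Mir129-2 was 1.31-fold higher in replicate 1 (-0.39, -0.45 to -0.33, exact binomial adjusted p = 8.40e-39). Both Mir129 intervals lay below 0 and overlapped the middle 50% of tested genes, which ran from -0.66 to 0.42.

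Mir135b was 1.62-fold higher in replicate 2 (log2 ratio 0.70, exact 95% interval 0.44 to 0.96, exact binomial adjusted p = 7.90e-08). Mir135a-2 was 1.34-fold higher in replicate 2 (0.42, 0.10 to 0.76, exact binomial adjusted p = 0.0177). For Mir135a-1 the log2 ratio was 0.24 with an interval of -0.39 to 0.91 that held 0 (exact binomial adjusted p = 0.560), so a difference was not detectable at this depth.

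Mir137 had a log2 ratio of -0.09 (exact 95% interval -0.11 to -0.07, exact binomial adjusted p = 1.41e-12). It did not pass with DESeq2 size factors (-0.02, exact binomial adjusted p = 0.193), with which 57.3% of tested genes were called. Of the tested genes, 9.71% had a ratio nearer to 0 than Mir137, and 61.5% had one nearer to 0 than Mir135b.

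Tests that allow for spread between libraries called fewer genes. The biological coefficient of variation (BCV) estimated over all tested genes was 0.481, and with it the edgeR exact test called none of the 6 members and 1.1% of tested genes. None of the members had an unadjusted p under 0.05 in that test. With 1 library on each side, this BCV was estimated by treating the same 2 libraries as replicates, so their differences were set against a spread made of those differences and few calls could arise. At a fixed BCV of 0.1 the edgeR exact test called Mir129-1 (adjusted p = 0.0207) and Mir135b (adjusted p = 0.0178), and 28.8% of tested genes.

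The libraries also differed in markers of cell types. The summed level of the 7 neuron markers was 55877 CPM in replicate 1 and 30698 in replicate 2, and most of it was Mir132, at 40577 and 21189 CPM. The neuron markers did not all move one way. Both Mir128 loci and Mir124a-3 were higher in replicate 1. Mir138-1, at 4244 and 4820 CPM, Mir124a-1 and Mir124a-2 were higher in replicate 2. The Mir124a loci had few counts: 7 and 19 for Mir124a-1, 0 and 6 for Mir124a-2, and 10 and 3 for Mir124a-3. The 2 oligodendrocyte markers summed to 7091 and 5329 CPM. The endothelial marker Mir126a stood at 7756 and 13122 CPM, and the 2 blood markers at 36.2 and 861 in sum. The 2 mural markers went opposite ways, Mir143 with 5276 and 6036 CPM and Mir145a with 235 and 169. No marker was at 0 in both libraries, and Mir124a-2 was at 0 in replicate 1. The part of these differences in the ratios of the Mir129 and Mir135 loci was not tested. Of the 29 tested genes of the synaptic list, the exact binomial test called 7 in favour of replicate 2 and 14 in favour of replicate 1. Of all tested genes it called 24.5% in favour of replicate 2 and 34.2% in favour of replicate 1. The median log2 ratio of the list was -0.17 beside -0.07 over all tested genes. The list was not tested as a set.

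**Figure D5:**
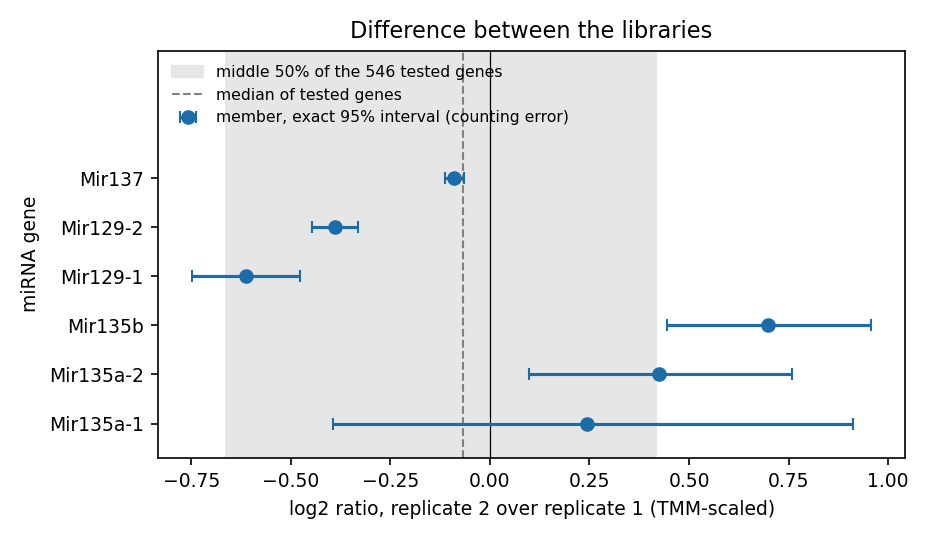
Points give the log2 ratio of replicate 2 to replicate 1 for each member after TMM scaling, with exact 95% intervals for counting error, and the grey band marks the middle 50% of the 546 tested genes. The Mir129 loci lie below 0 (-0.39 and -0.61), Mir135b and Mir135a-2 above 0 (0.70 and 0.42), the interval of Mir135a-1 holds 0 and Mir137 lies at -0.09.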

How the data were processed

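The authors deposited raw counts of reads on miRNA genes, 1 table for each library, on mm10 with GENCODE M21, per the records deposited with the files. For the aligner, the counter and trimming: not given in the sources used here. Columns hold counts without regard to strand, on the gene's strand (used here) and on the opposite strand. The 4 rows that name no gene held 67.4% and 67.6% of reads and stayed out of library sizes. A row sums both arms of a hairpin.

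All 2202 IDs matched M21. CPM was computed over all counts on miRNA genes. Ratios (0.5 counts added) used edgeR 4.0.16 TMM factors and genes whose counts summed to 10 or more over both libraries, with a threshold of 0.05 on adjusted p. DESeq2 1.42.0 gave alternative size factors, and ViennaRNA 2.7.2 the hairpin energies. The ratio script was tested on simulated data. Named genes were the members, the 2 other genes nearest in level to each detected member, the top 3 and undetected genes of the synaptic list, same-seed genes, miRNA genes within 10 kb, and hosts. Members and lists were chosen with earlier results of these data known. Alternatives were other columns, scalings, denominators, filters, pseudocounts, tests and stretch lengths, and each library left out. Reads from CAST alleles that differ from mm10 were not analysed here.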

Additional observations from a re-analysis of the deposited data

Results flagged for a closer look

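Counts on the opposite strand of Mir129-2 lay above the limit of 3 that a count of 0 allows, with 7 in replicate 1 and 12 in replicate 2. They are the counts of Mir129b on its own strand. Reads mapping to several places, which no gene's count includes, numbered 5244644 in replicate 1 and 6290303 in replicate 2. How many of them come from miR-129-5p or miR-135a-5p was not tested.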

How the results depend on the processing

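With the column that ignores strand, Mir137 stood at 6324 CPM, Mir129-2 at 6.79 CPM and the Mir129-1 share of its pair at 96.6%. Mir137 had 25392 and 29784 counts in that column, so its higher CPM comes from a smaller total. In the same column the log2 ratio of Mir129-2 turned to 0.81 and was not called (exact binomial adjusted p = 0.0667). Mir129b opposite Mir129-2 leaves that gene 19 and 42 counts there. Per 1000000 of all reads, levels were 1912 for Mir137, 334 for Mir129-2, 63.6 for Mir129-1, 19.4 for Mir135b, 11.3 for Mir135a-2 and 2.98 for Mir135a-1, and without the 10 most abundant genes 13793, 2408, 458, 140, 81.6 and 21.5, both by a change of denominator that keeps the order. At a minimum of 100 CPM, 3 members were detected, in place of 5 at 10 CPM. The share of all genes that pass 100 CPM was not computed. With DESeq2 size factors the log2 ratio of Mir137 was -0.019 and not called. The edgeR exact test at a BCV of 0.1 called 157 genes, 2 members and 10 of the synaptic list, and lost Mir137 (-0.090), Mir129-2 (-0.39) and Mir135a-2 (0.42). At the estimated BCV it called 6 genes and 0 members, with 0 at an unadjusted p under 0.05, so Mir129-1 (-0.61) and Mir135b (0.70) were lost too; this BCV comes from the same differences that it tests. Leaving out a library moves a mean of 2 by less than its SD by construction, and it leaves no ratio. Ratios at 100 counts or more do not include Mir135a-1. No paired analysis was possible because there is 1 group. Depth limits Mir135a-1 most, with 35 and 52 counts.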
